A study of Homo sapiens with 40 samples.

Results

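Transcript levels of ATP2A3 and 9 further calcium pump, sensor and channel genes were examined in human microglia-like cells (hMGLs) that carried edits in genes of Alzheimer's disease risk. The 10 members were the rows of the deposited table, out of 60504 genes, whose identifiers map to ATP2A3, ATP2A2, ATP2B1, ATP2B4, STIM1, STIM2, ORAI1, ITPR1, ITPR2 and ITPR3, and each symbol had 1 identifier. ATP2A3 was chosen because earlier results of these data showed it lower in TREM2-R47H and SORL1-KO cells, so its levels are given as a description with no test. The cells were made from H9 (WA09), a human embryonic stem cell line, and the 40 RNA-seq libraries fall into 7 groups. TREM2-KO (8 libraries) is a knockout of the microglial lipid receptor gene TREM2, and TREM2-R47H (7 libraries) carries the R47H missense change in that gene. SORL1-KO (7 libraries) carries the stop change R744X in the sorting receptor gene SORL1, and SORL1-A528T (7 libraries) carries a missense change there. CD33-SNP (2 libraries) was edited at a polymorphism of the sialic acid receptor gene CD33. INPP5D-SNP (2 libraries) was converted from heterozygous to the A allele at a polymorphism of the inositol phosphatase gene INPP5D. Unedited H9 cells (7 libraries) are called WT. All edits were homozygous and made with CRISPR/Cas9 delivered on the PX458 plasmid. The labels do not say whether a line is 1 clone or whether the libraries within a group are separate cultures, so p-values measure the spread between libraries, which may be technical. In every group, blood progenitors collected on day 11 were matured for 28 days in medium holding 25 ng/mL M-CSF, 50 ng/mL TGFβ1 and 100 ng/mL IL-34, with 100 ng/mL of both CX3CL1 and CD200 over the last 3 days.

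Calcium stored in the endoplasmic reticulum is the pool from which microglia raise cytosolic calcium after a surface receptor activates phospholipase C. SERCA pumps (ATP2A genes) load the store, inositol trisphosphate receptors (ITPR genes) release it, STIM proteins sense its emptying and open ORAI channels at the cell surface, and plasma membrane pumps (ATP2B genes) expel calcium from the cell. ATP2A3 encodes SERCA3, known from blood cells and platelets as a pump of lower calcium affinity than the widely expressed SERCA2 of ATP2A2.

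The pump genes belong to 1 family, so the stretch that encodes the phosphorylation site of P-type ATPases is shown for the 4 pump members, to let a reader see how far reads from one copy differ from another. Capitals mark the 21 bases that encode the site, and each window of 51 bases lies in a coding exon and is written 5′ to 3′ on the gene's own strand from GENCODE 29 transcripts (GRCh38). The windows lie at chr17:3947400-3947450 (minus strand, exon 8 of ATP2A3), chr12:110327958-110328008 (plus strand, exon 8 of ATP2A2), chr12:89621678-89621728 (minus strand, exon 10 of ATP2B1) and chr1:203707925-203707975 (plus strand, exon 10 of ATP2B4).
ATP2A3: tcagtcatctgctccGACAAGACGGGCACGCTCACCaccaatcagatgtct
ATP2A2: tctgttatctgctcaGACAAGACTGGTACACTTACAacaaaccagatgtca
ATP2B1: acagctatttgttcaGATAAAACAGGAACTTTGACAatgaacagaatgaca
ATP2B4: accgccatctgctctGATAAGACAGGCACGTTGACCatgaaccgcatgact
The ATP2A3 window differed from that of ATP2A2 at 11 of 51 bases, 5 of them within the capitals. It differed from ATP2B4 at 14 bases and from ATP2B1 at 22, and the windows of ATP2B1 and ATP2B4 differed at 12. None of the 7216 distinct 50-base stretches in the annotated transcripts of ATP2A3 occurred in transcripts of another gene. The share that did was 0.264% for ATP2A2, 0.421% for STIM1, 2.13% for ORAI1, 0.288% for ITPR1 and 0.602% for ITPR2, and 0 for the remaining members. ATP2A3 lies on chromosome 17 from 3923870 to 3964464 and overlaps no other annotated gene, and ATP2A2 and ORAI1 overlap none either. Each of the other 7 members overlaps at least 1 annotated gene on the opposite strand. The library kit was directional per the labels, and the labels do not state whether the counting used strand.

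Levels are in TPM, a share of all transcripts scaled to a fixed total, which the authors normalised per length, so genes can be compared with each other. Between 13208 and 14086 genes reached 1 TPM in a library. The labels give a mean depth of 45.13 M reads (39.2 to 64.6 M; M, 1e6), and the depth of each library is unknown here. Libraries TREM2-KO 8, SORL1-KO 7 and SORL1-A528T 7 stood apart. Their log2 levels correlated with the mean of the other libraries of their group at r = 0.950, 0.950 and 0.956 over 14855 genes, against 0.967 to 0.989 in the other 37 libraries. TREM2 averaged 35.3 ± 8.39 TPM in TREM2-KO cells and 457 ± 120 TPM in WT cells (SD, n = 8 and 7), and SORL1 averaged 16.1 ± 3.00 TPM in SORL1-KO cells and 33.3 ± 9.74 TPM in WT cells (SD, n = 7 each). The 14 microglial markers examined were present in every library, the lowest value being 1.04 TPM for TMEM119. The summed TPM of 14 endothelial and stromal markers had its median at 343 in TREM2-KO, 257 in TREM2-R47H, 228 in SORL1-KO, 232 in SORL1-A528T and 780 in WT libraries, where it ranged from 225 to 3292. It was 871 and 2272 in the 2 INPP5D-SNP libraries and 205 and 406 in the 2 CD33-SNP libraries. Of the 14, PECAM1, which myeloid cells carry as well, had a median of 204 TPM over the 40 libraries. The next highest median was 19.7 TPM, for COL6A1.

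ATP2A3 was lowest in TREM2-R47H cells. The lowest, median and highest TREM2-R47H library had 14.1, 19.9 and 33.1 TPM, against 44.5, 68.6 and 84.5 TPM in WT libraries. Every one of the 7 TREM2-R47H libraries lay below every WT library, and the mean of 22.2 ± 7.69 TPM was 0.326 of the WT mean of 68.1 ± 12.6 TPM (SD, n = 7 each). The log2 difference was −1.62 ± 0.14 (SE). In bulk RNA, fewer cells of a type and less RNA per cell cannot be told apart. Within TREM2-R47H the libraries formed a lower set of 5, at 14.1 to 20.1 TPM, and libraries 5 and 6, at 32.8 and 33.1 TPM. WT libraries 5 and 6 were the highest of WT as well, at 84.5 and 78.8 TPM, and over the 7 same-numbered pairs the TREM2-R47H level was 0.220 to 0.447 of that in WT.

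SORL1-KO cells were intermediate. ATP2A3 had its lowest, median and highest value at 32.1, 37.3 and 43.4 TPM in SORL1-KO libraries, again below each WT library, and the mean was 37.3 ± 4.51 TPM in SORL1-KO and 68.1 ± 12.6 TPM in WT (SD, n = 7 each). The log2 difference was −0.84 ± 0.14 (SE). SORL1-A528T libraries had 39.5, 45.3 and 49.8 TPM as their lowest, median and highest value, with a mean of 45.3 ± 3.59 TPM (SD, n = 7) and a log2 difference from WT of −0.56. They overlapped WT only through WT library 4, at 44.5 TPM, and the other 6 WT libraries lay above all of them. Between the SORL1 lines the ranges overlapped, the mean being 37.3 TPM in SORL1-KO and 45.3 TPM in SORL1-A528T. In the 7 same-numbered pairs the SORL1-KO level was 0.739 to 0.913 of that in SORL1-A528T. These ratios are a description, since ATP2A3 was chosen for its lower level in SORL1-KO.

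TREM2-KO cells did not share the lower ATP2A3 level. Their lowest, median and highest library had 68.5, 79.7 and 82.6 TPM, which overlapped WT, and the mean was 78.4 ± 4.65 TPM in TREM2-KO and 68.1 ± 12.6 TPM in WT (SD, n = 8 and 7), a log2 difference of 0.22. Every TREM2-KO library lay above every TREM2-R47H library, with a mean 3.53 times as high. ATP2A3 was at 52.8 and 31.7 TPM in the 2 CD33-SNP libraries and at 39.9 and 47.4 TPM in the 2 INPP5D-SNP libraries, so 1 library of each lay below the whole WT range. Ordered by mean, the groups ran TREM2-KO, WT, SORL1-A528T, INPP5D-SNP, CD33-SNP, SORL1-KO and TREM2-R47H, and each group overlapped the next in that order. WT library 4 had the lowest ATP2A3 of WT, and its summed level of 10 monocyte and neutrophil markers was the highest of WT at 3239 TPM, against 196 to 833 TPM in the other WT libraries. The same sum was 76.5 to 299 TPM in TREM2-R47H and 131 to 719 TPM in SORL1-KO libraries. It was 219 to 1943 TPM in TREM2-KO and 141 to 1458 TPM in SORL1-A528T libraries. Library 4 held the highest sum in each of these groups as well. Its ATP2A3 level there was 19.9, 42.55, 80.3 and 46.6 TPM in that order, beside group medians of 19.9, 37.3, 79.7 and 45.3 TPM. MPO and ELANE, which define immature neutrophils, were at or near 0 in all 40 libraries. The part of these markers in the ATP2A3 levels was not tested.

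**Figure D1:**
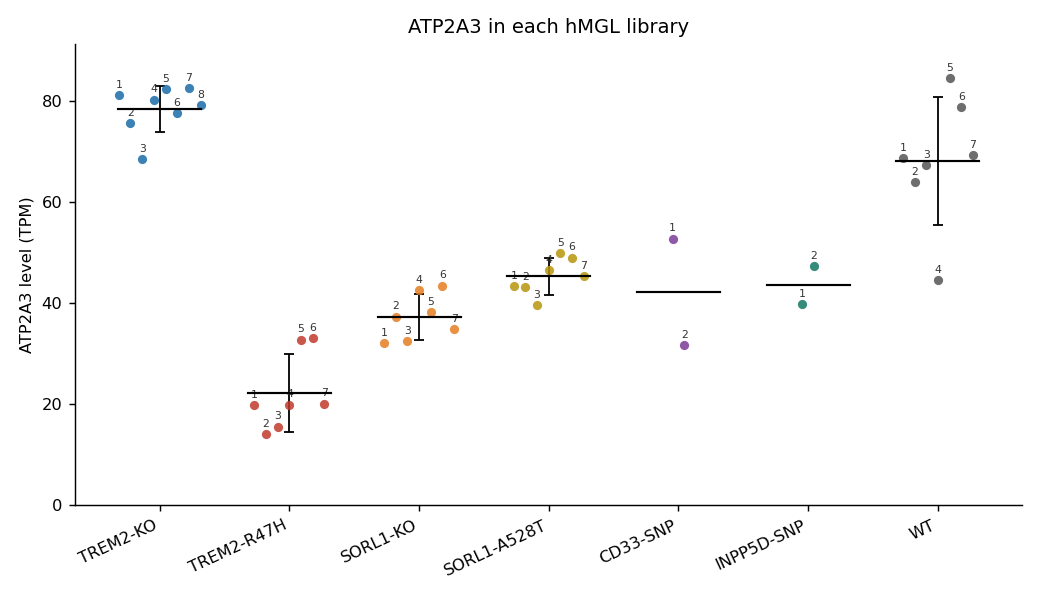
ATP2A3 level in TPM (y axis) in each library of the 7 groups (x axis). Points are libraries with their replicate number, the horizontal line is the group mean, and the error bar is 1 SD where a group has 7 or 8 libraries; the 7 TREM2-R47H libraries lie between 14.1 and 33.1 TPM and the 7 WT libraries between 44.5 and 84.5 TPM.

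The 7 protein-coding genes within 250 kb of ATP2A3 were examined for whether the region as a whole differed. They are ITGAE, HASPIN, NCBP3, CAMKK1 and P2RX1 on one side and ZZEF1 and CYB5D2 on the other, and limma called none of them in any of the 8 comparisons, with an unadjusted p below 0.05 in 3 of the 56 tests. The nearest gene, P2RX1, encodes an ATP-gated calcium channel and averaged 2.19 ± 1.54 TPM in TREM2-R47H and 1.25 ± 0.62 TPM in WT (SD, n = 7 each), a log2 change of 0.40 (limma adjusted p = 0.515). It averaged 2.703 TPM in SORL1-KO (log2 change 0.57, limma adjusted p = 0.557). ZZEF1, on the other flank, averaged 14.9 ± 1.13 TPM in TREM2-R47H and 17.0 ± 1.11 TPM in WT (SD, n = 7 each), a log2 change of −0.19 (limma adjusted p = 0.123). CAMKK1, a calcium and calmodulin dependent kinase, averaged 9.46 TPM in TREM2-R47H, 9.05 TPM in SORL1-KO and 9.54 TPM in WT. In TREM2-R47H minus WT the 7 neighbours thus ranged from −0.19 to 0.40 on the log2 scale, beside −1.62 for ATP2A3.

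**Figure D2:**
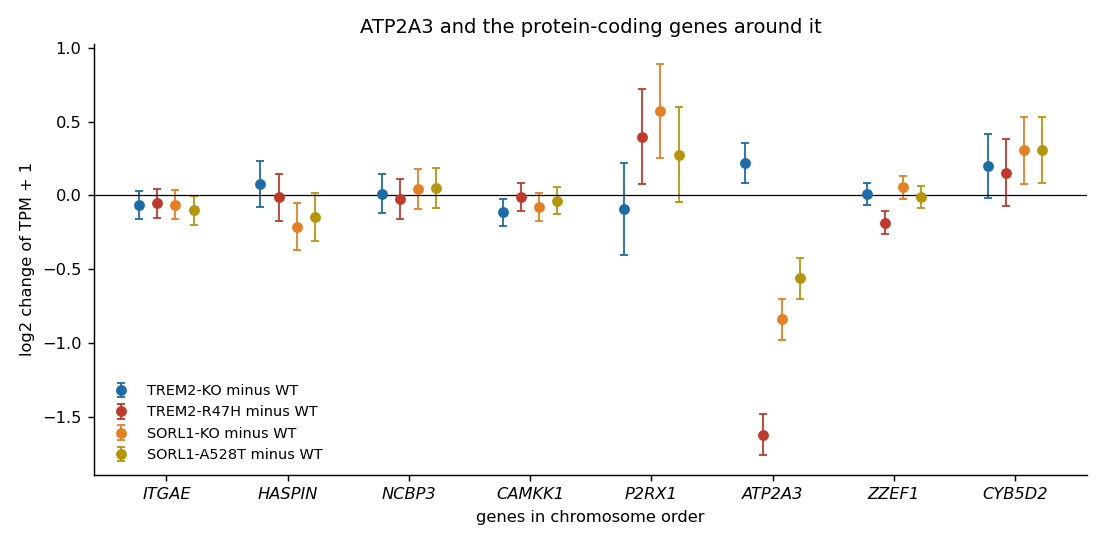
Log2 change of TPM + 1 (y axis) against WT for ATP2A3 and the 7 protein-coding genes within 250 kb of it, in chromosome order (x axis), in 4 edited groups. Points are fitted changes and bars are 1 SE; ATP2A3 lies at −1.62 in TREM2-R47H and −0.84 in SORL1-KO, and no neighbour passed the test.

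ATP2A2, the housekeeping SERCA pump, was the most abundant member and passed the test in no comparison. It averaged 126 ± 18.4 TPM in TREM2-KO, 121 ± 10.2 TPM in TREM2-R47H, 127 ± 10.9 TPM in SORL1-KO, 128 ± 10.8 TPM in SORL1-A528T and 135 ± 9.14 TPM in WT (SD, n = 8, 7, 7, 7 and 7). Its log2 change against WT was −0.16 ± 0.08 (SE) in TREM2-R47H (limma adjusted p = 0.214) and −0.10 ± 0.08 in SORL1-KO (limma adjusted p = 0.763). ATP2A3 made up 38.7% ± 4.16 of the summed ATP2A3 and ATP2A2 level in TREM2-KO, 15.5% ± 5.29 in TREM2-R47H, 22.8% ± 2.71 in SORL1-KO, 26.2% ± 2.28 in SORL1-A528T and 33.4% ± 4.92 in WT (SD, same n). That share contains the ATP2A3 level and is a description. In the 3 libraries that stood apart ATP2A2 was the lowest of its group, at 93.1, 107 and 107 TPM in TREM2-KO 8, SORL1-KO 7 and SORL1-A528T 7, while ATP2A3 lay within the range of the others.

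**Figure D3:**
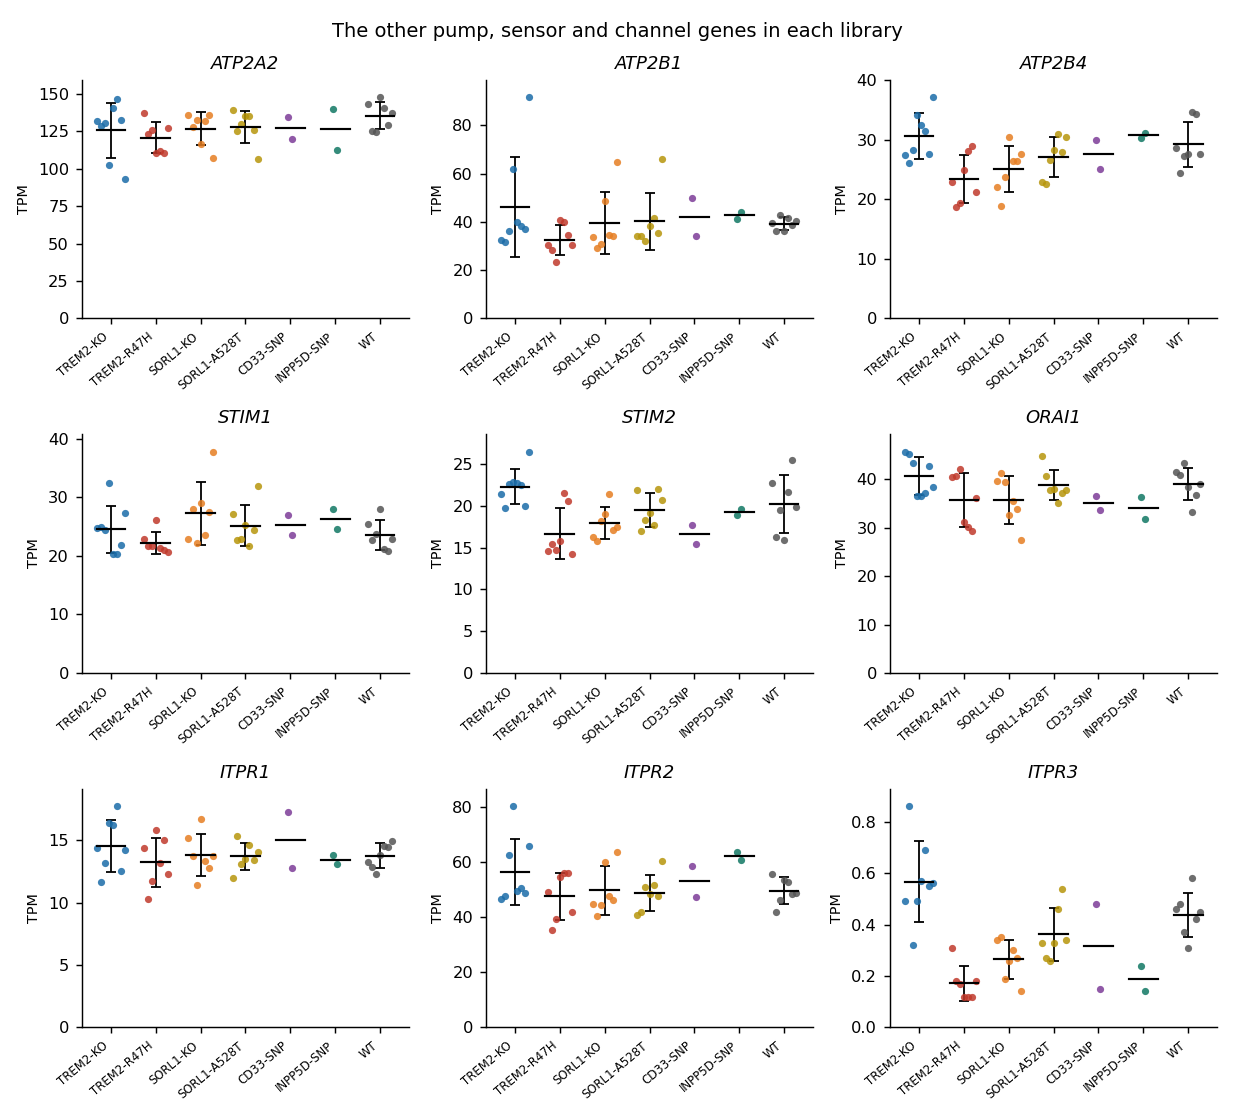
Level in TPM (y axes) of the 9 other members in each library of the 7 groups (x axes). Points are libraries, horizontal lines are group means, and error bars are 1 SD where a group has 7 or 8 libraries; ATP2B1 reaches 91.6 TPM in TREM2-KO 8, and ITPR3 stays below 1 TPM throughout.

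Of the plasma membrane pumps, ATP2B4 passed the test. ATP2B4 had its lowest, median and highest value at 18.7, 22.9 and 28.9 TPM in TREM2-R47H libraries, against 24.5, 27.7 and 34.7 TPM in WT libraries. The ranges overlapped, and the TREM2-R47H library was the lower in 7 of 7 same-numbered pairs. ATP2B4 averaged 23.5 ± 4.03 TPM in TREM2-R47H and 29.2 ± 3.83 TPM in WT (SD, n = 7 each), and it fell, with a log2 change of −0.31 ± 0.10 (SE, limma adjusted p = 0.0433). In that comparison, which the choice of ATP2A3 used, 11.4% of the 14855 genes tested were called, 2.63% as higher and 8.77% as lower. The ATP2B4 call held under 6 of 13 alternatives and was lost under 7, among them median-ratio scaling (−0.24, limma adjusted p = 0.111) and a fit with the stromal score as covariate (log2 change −0.19, limma adjusted p = 0.369), and without WT library 4 its limma adjusted p was 0.0531. The mean stromal score, over log2 levels, was 2.16 ± 0.74 in TREM2-R47H and 3.58 ± 1.55 in WT (SD, n = 7 each). Of the endothelial markers, CDH5 and VWF stayed at or below 1.89 TPM and KDR at or below 6.98 TPM in all libraries, whereas PECAM1, which myeloid cells carry as well, lay between 124 and 446 TPM. ATP2B4 averaged 30.6 ± 3.88 TPM in TREM2-KO (SD, n = 8), and TREM2-KO exceeded TREM2-R47H by a log2 change of 0.38 ± 0.10 (SE, limma adjusted p = 0.00589). In SORL1-KO it averaged 25.1 ± 3.83 TPM (SD, n = 7), a log2 change of −0.22 ± 0.10 against WT that did not pass (limma adjusted p = 0.432).

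ATP2B1, the other plasma membrane pump, averaged 46.1 ± 20.7 TPM in TREM2-KO, 32.6 ± 6.28 TPM in TREM2-R47H, 39.4 ± 12.9 TPM in SORL1-KO, 40.3 ± 11.9 TPM in SORL1-A528T and 39.3 ± 2.56 TPM in WT (SD, n = 8, 7, 7, 7 and 7). Its spread came largely from the 3 libraries that stood apart, at 91.6, 64.9 and 66.2 TPM, which were 2.31, 1.84 and 1.84 times the mean of the other libraries of their group. The log2 change against WT was −0.28 ± 0.19 (SE) in TREM2-R47H (limma adjusted p = 0.391), and no comparison passed. ATP2B1 made up 58.0% ± 2.82 of the summed ATP2B1 and ATP2B4 level in TREM2-R47H and 57.4% ± 2.94 in WT (SD, n = 7 each).

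STIM2, the sensor tuned to small losses of store calcium, was lower in TREM2-R47H than in TREM2-KO. STIM2 had 14.2, 15.5 and 21.5 TPM as its lowest, median and highest value in TREM2-R47H, 19.8, 22.6 and 26.5 TPM in TREM2-KO, and 15.96, 19.9 and 25.5 TPM in WT. TREM2-KO overlapped TREM2-R47H only through TREM2-R47H libraries 5 and 6. TREM2-KO averaged 22.3 ± 2.10 TPM and TREM2-R47H 16.7 ± 3.04 TPM (SD, n = 8 and 7), a log2 difference of 0.41 ± 0.09 (SE, limma adjusted p = 0.00125). Against WT, STIM2 in TREM2-R47H had a log2 change of −0.26 ± 0.10 (SE) that did not pass (limma adjusted p = 0.0661), and without WT library 4 it was −0.32 (limma adjusted p = 0.0290). The TREM2-R47H library was the lower in 7 of 7 same-numbered pairs, and with the replicate number as a block the change passed in the fit over all libraries (limma adjusted p = 0.0183) but not in the 2 groups alone (limma adjusted p = 0.0592). STIM2 averaged 17.9 ± 1.90 TPM in SORL1-KO and 20.2 ± 3.43 TPM in WT (SD, n = 7 each), a log2 change of −0.16 (limma adjusted p = 0.607).

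STIM1, the main store sensor, and ORAI1, the pore of the store-operated channel, passed in no comparison. STIM1 averaged 24.6 ± 4.03 TPM in TREM2-KO, 22.2 ± 1.85 TPM in TREM2-R47H, 27.3 ± 5.38 TPM in SORL1-KO, 25.2 ± 3.50 TPM in SORL1-A528T and 23.6 ± 2.53 TPM in WT (SD, n = 8, 7, 7, 7 and 7). The log2 change of STIM1 was highest in SORL1-KO, at 0.19 ± 0.10 (SE, limma adjusted p = 0.516). ORAI1 averaged 40.7 ± 3.90 TPM in TREM2-KO, 35.7 ± 5.54 TPM in TREM2-R47H, 35.7 ± 4.90 TPM in SORL1-KO, 38.8 ± 3.16 TPM in SORL1-A528T and 39.0 ± 3.38 TPM in WT (SD, same n). Its log2 change was −0.13 ± 0.09 (SE) in both TREM2-R47H (limma adjusted p = 0.374) and SORL1-KO (limma adjusted p = 0.654), values whose size is under 2 SE.

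Among the inositol trisphosphate receptors, ITPR2 was the main transcript in every group. It averaged 56.5 ± 12.03 TPM in TREM2-KO, 47.6 ± 8.66 TPM in TREM2-R47H, 49.8 ± 8.78 TPM in SORL1-KO, 48.8 ± 6.63 TPM in SORL1-A528T and 49.7 ± 4.81 TPM in WT (SD, n = 8, 7, 7, 7 and 7). ITPR2 made up 77.5% to 82.1% of the summed level of the 3 receptor genes in the group means. ITPR2 was at 61.0 and 63.9 TPM in the 2 INPP5D-SNP libraries, above all WT libraries (41.8 to 55.8 TPM), and its log2 change of 0.33 ± 0.18 (SE) there did not pass (limma adjusted p = 0.667). ITPR1, the receptor best known from neurons, averaged between 13.3 TPM in TREM2-R47H and 15.04 TPM in CD33-SNP, with 13.7 ± 1.00 TPM in WT (SD, n = 7), and passed in no comparison.

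ITPR3 stayed below 1 TPM in all 40 libraries and did not reach the filter on low values, so 8 of the 9 other members, and ATP2A3, passed it. ITPR3 had 0.12, 0.17 and 0.31 TPM as its lowest, median and highest value in TREM2-R47H libraries, against 0.31, 0.45 and 0.58 TPM in WT libraries, and 6 of 7 TREM2-R47H libraries lay below every WT library. The means were 0.57 ± 0.16 TPM in TREM2-KO, 0.17 ± 0.07 TPM in TREM2-R47H, 0.26 ± 0.08 TPM in SORL1-KO and 0.44 ± 0.09 TPM in WT (SD, n = 8, 7, 7 and 7). With no filter on low values limma called it lower in TREM2-R47H than in WT, at −0.30 ± 0.07 (SE) on the log2(TPM + 1) scale, which understates changes of low genes (limma adjusted p = 0.00677), while TREM2-KO exceeded TREM2-R47H by 0.41 ± 0.07 (limma adjusted p = 3.1e-05). ITPR3 overlaps UQCC2 on the opposite strand, and at this level a few reads set its value.

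**Figure D4:**
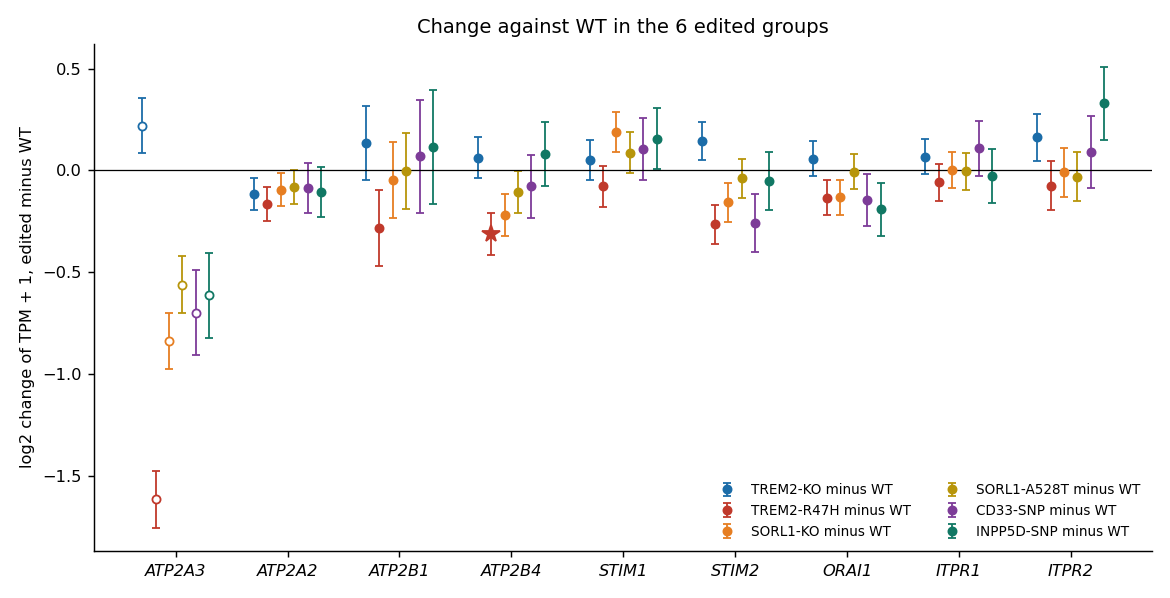
Fitted log2 change of TPM + 1 against WT (y axis) of ATP2A3 and the 8 tested members (x axis) in the 6 edited groups, with bars of 1 SE. Open circles mark ATP2A3, which was not tested, and the star marks the 1 call against WT, ATP2B4 in TREM2-R47H at −0.31.

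Counted over the 8 members tested, 1 was called in TREM2-R47H minus WT, a share near the 11.4% of all genes called there, and 2 had an unadjusted p below 0.05. All 8 changes were below 0 on the values as deposited, against 6 of 8 under median-ratio scaling and 5 of 8 under quantile normalization. Their median log2 change was −0.15, beside −0.06 over all genes tested. In SORL1-KO minus WT, which the choice of ATP2A3 used too, limma called 0 of 8 members and 1.09% of genes, 1 member (ATP2B4) having an unadjusted p below 0.05, and the median was −0.07, beside −0.03 over all genes. In TREM2-KO minus WT limma called 0 of 8 members and 1.61% of genes, with no member at an unadjusted p below 0.05, and the medians were 0.07 for the members and 0.00 for all genes. SORL1-A528T minus WT had 0 of 8 members called and 0.0471% of genes, INPP5D-SNP minus WT 0 of 8 and 0.0337%, and CD33-SNP minus WT 0 of 8 and 0% by limma, each with no member at an unadjusted p below 0.05. In TREM2-KO minus TREM2-R47H, limma called 2 of 8 members higher (ATP2B4 and STIM2), 5 had an unadjusted p below 0.05, and all 8 changes were above 0 (7 of 8 under median-ratio scaling or quantile normalization), with a median of 0.22, beside 0.06 over all genes. The background there was high, since 21.3% of genes were called, 14.7% as higher and 6.58% as lower, so the count of members is near what genes in general showed. In SORL1-KO minus SORL1-A528T limma called 0 of 8 members, with none at an unadjusted p below 0.05, and 0.0942% of genes. The comparisons with WT share the WT libraries, and both comparisons of TREM2-R47H share its libraries.

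Within groups, some members moved together from library to library. Over the 40 libraries, deviations of log2 levels from the group means correlated at r = 0.78 between ATP2B4 and ITPR2, 0.78 between ATP2B1 and ITPR2, 0.69 between ATP2B1 and ATP2B4, 0.64 between ATP2A3 and STIM2 and 0.64 between ATP2A3 and ATP2B4. They ran against each other for ATP2B4 and ORAI1 (r = −0.80), for ATP2A2 and ATP2B1 (r = −0.75, and −0.52 without the 3 libraries that stood apart) and for ORAI1 and ITPR2 (r = −0.66). These are 8 of 45 pairs, chosen after their values were seen. The libraries share their preparation and depth, and the values are a description.

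By Pearson correlation of log2(TPM + 1) over the 40 libraries, the 5 genes most like ATP2A3 among 14743 were HERPUD1 (r = 0.937), SUMO3 (r = 0.934), LMTK2 (r = 0.931), NCF1C (r = 0.928) and NCF1B (r = 0.925). Their deviations from the group means correlated with those of ATP2A3 at r = 0.759, 0.715, 0.789, 0.609 and 0.596 in that order. The 5 genes were picked by r over the same libraries, which contains these deviations, so the second set of values is a description. HERPUD1, a membrane protein of the endoplasmic reticulum, averaged 532 ± 70.3 TPM in TREM2-KO, 248 ± 65.8 TPM in TREM2-R47H, 341 ± 50.1 TPM in SORL1-KO and 460 ± 61.1 TPM in WT (SD, n = 8, 7, 7 and 7). NCF1C, a pseudogene copy of the phagocyte oxidase gene NCF1, averaged 215 ± 16.2 TPM in TREM2-KO, 55.1 ± 15.3 TPM in TREM2-R47H, 109 ± 23.1 TPM in SORL1-KO and 193 ± 18.1 TPM in WT (SD, same n). NCF1B is a second copy, and reads of NCF1 and its copies can be assigned to either, so both values are uncertain. Among the members, ITPR3 (r = 0.771), STIM2 (r = 0.748) and ATP2B4 (r = 0.716) were the most like ATP2A3, and ATP2A2, the other SERCA gene, was at r = 0.127. For deviations from the group means, r with ATP2A3 was 0.245 for ITPR3, 0.643 for STIM2 and 0.642 for ATP2B4. STIM2 ranked 254 and ATP2B4 ranked 358 among the 14743 genes.

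The other genes of calcium handling were taken from 11 lists of 134 genes, of which 133 were found and 107 were tested. In TREM2-R47H minus WT, 15 of the 107 were called, 3 higher and 12 lower, or 14.0% beside 11.4% of all genes. Over all genes 390 were called higher and 1303 lower there, and the split changed to 600 higher and 831 lower under median-ratio scaling, which gave 3 higher and 7 lower among the 107. With the replicate number as a block in the 2 groups, 23 of the 107 were called, 5 higher and 18 lower, in a fit that called 18.4% of all genes.

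Calcium-coupled surface channels and receptors held the largest change among the 15 genes called. TRPV4, a channel opened by warmth and swelling, had 1.34 to 2.66 TPM in TREM2-R47H libraries, against 8.68 to 15.8 TPM in WT libraries, with no overlap, and fell (log2 change −2.03 ± 0.32, SE, limma adjusted p = 3.1e-05). TRPM2, an oxidant-gated calcium channel, averaged 49.8 ± 8.33 TPM in TREM2-R47H and 97.9 ± 9.64 TPM in WT (SD, n = 7 each; log2 change −0.97, limma adjusted p = 9.6e-06). P2RY6, the UDP receptor that drives microglial phagocytosis, averaged 44.0 ± 6.81 TPM in TREM2-R47H and 78.6 ± 10.3 TPM in WT (SD, n = 7 each; log2 change −0.83, limma adjusted p = 7.5e-06). They were the 3 genes called of 15 tested in that list, all lower, and the list's median change was −0.14. Of the 6 endolysosomal channels tested, MCOLN2 was called, at 11.3 ± 1.99 TPM in TREM2-R47H and 24.6 ± 5.07 TPM in WT (SD, n = 7 each; log2 change −1.05, limma adjusted p = 4.5e-06). MCOLN2 was also the 1 gene of the 107 called in SORL1-KO minus WT, at 15.8 ± 1.95 TPM in SORL1-KO (SD, n = 7; log2 change −0.59, limma adjusted p = 0.0325). That call was lost without a filter (log2 change −0.59, limma adjusted p = 0.0709), with the stromal covariate (−0.63, limma adjusted p = 0.162) and with libraries 5 and 6 averaged (−0.55, limma adjusted p = 0.132). With SORL1-KO and WT fitted alone it was lost too (−0.59), both without a replicate block (limma adjusted p = 0.0535) and with one (limma adjusted p = 0.0949).

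Of 13 release channels and their regulators tested, 3 were called lower in TREM2-R47H. TMBIM6, a membrane protein linked to calcium leak from the endoplasmic reticulum, averaged 513 ± 27.5 TPM in TREM2-R47H and 655 ± 16.6 TPM in WT (SD, n = 7 each; log2 change −0.35, limma adjusted p = 5.4e-06), with no overlap between the groups. BCL2L1 (log2 change −0.33) and BCL2 (log2 change −0.52), survival proteins that bind inositol trisphosphate receptors, had limma adjusted p = 0.00953 and 0.0378. ORAI2, a partner pore of ORAI1, averaged 66.4 ± 4.53 TPM in TREM2-R47H and 82.2 ± 5.38 TPM in WT (SD, n = 7 each; log2 change −0.30, limma adjusted p = 0.0126) and was the 1 call among 8 store-operated entry partners. HSP90B1, a chaperone that binds calcium in the store lumen, was the 1 call of 12 lumen genes (log2 change −0.32, limma adjusted p = 0.0146), and MICU2, a gatekeeper of mitochondrial calcium uptake, the 1 call of 12 (log2 change −0.23, limma adjusted p = 0.0355). Under median-ratio scaling ORAI2, BCL2L1, BCL2, HSP90B1 and MICU2 were no longer called, nor under quantile normalization. BCL2 and MICU2 also lost the call without a filter (limma adjusted p = 0.0831 and 0.0772) and without WT library 4 (limma adjusted p = 0.0557 and 0.0702), and with the stromal covariate BCL2 (−0.54, limma adjusted p = 0.0888) and HSP90B1 (−0.22, limma adjusted p = 0.193) did not pass. With the replicate block in the 2 groups alone, HSP90B1 and MICU2 were not called (limma adjusted p = 0.0687 and 0.0929), nor was MICU2 with the 2 groups fitted alone without a block (limma adjusted p = 0.0652). With libraries 5 and 6 averaged, BCL2, HSP90B1 and MICU2 lost the call (limma adjusted p = 0.0706, 0.0868 and 0.0919).

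Of 15 genes tested that make or clear inositol trisphosphate, 1 was called higher and 1 lower in TREM2-R47H, and of 19 that read calcium in the cytosol, 2 were called higher and 1 lower. ITPKB, which phosphorylates inositol trisphosphate, averaged 16.1 ± 2.39 TPM in TREM2-R47H and 12.04 ± 1.17 TPM in WT (SD, n = 7 each) and rose (log2 change 0.38, limma adjusted p = 0.00588), whereas PLCB3, a phospholipase C, averaged 13.2 ± 0.83 TPM in TREM2-R47H and 17.3 ± 1.05 TPM in WT (SD, n = 7 each) and fell (log2 change −0.36, limma adjusted p = 0.00598). NFATC1, a transcription factor activated by calcineurin, averaged 20.2 ± 8.0 TPM in TREM2-R47H and 9.75 ± 1.93 TPM in WT (SD, n = 7 each; log2 change 0.90, limma adjusted p = 0.00460). CAMK2D, a calmodulin kinase, rose (log2 change 0.26, limma adjusted p = 0.0161) and RCAN3, of the calcineurin regulator family, fell (log2 change −0.64, limma adjusted p = 0.00390). With the stromal covariate, NFATC1 (log2 change 0.65, limma adjusted p = 0.0827), CAMK2D (0.22, limma adjusted p = 0.109) and RCAN3 (−0.53, limma adjusted p = 0.0502) did not pass.

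**Figure D5:**
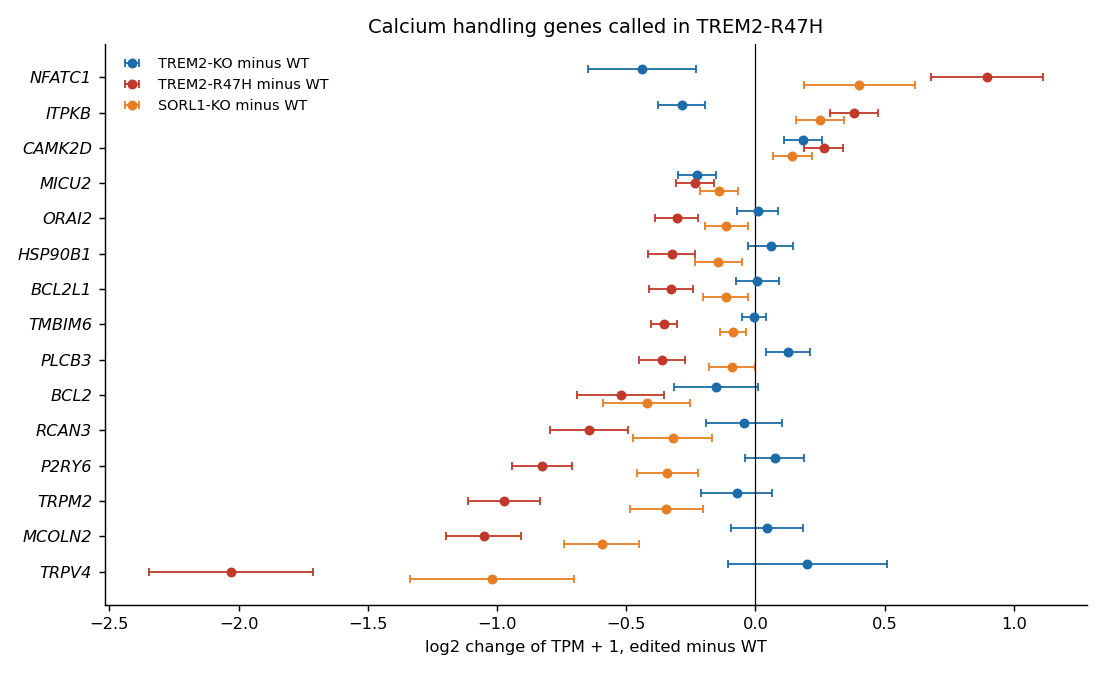
Log2 change of TPM + 1 against WT (x axis) of the 15 calcium handling genes called in TREM2-R47H minus WT (y axis), shown for TREM2-KO, TREM2-R47H and SORL1-KO, with bars of 1 SE. TRPV4 lies at −2.03 and NFATC1 at 0.90 in TREM2-R47H; the genes were chosen by the TREM2-R47H test.

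In TREM2-KO minus WT, 2 of the 107 genes were called, or 1.87% beside 1.61% of all genes, and both were lower. INPP5A, a phosphatase that ends the inositol trisphosphate signal, averaged 1.21 ± 0.23 TPM in TREM2-KO and 2.09 ± 0.62 TPM in WT (SD, n = 8 and 7; log2 change −0.47, limma adjusted p = 0.0242), and the call was lost with TREM2-KO and WT fitted alone (limma adjusted p = 0.105), without WT library 4 (limma adjusted p = 0.0584) and with the stromal covariate (limma adjusted p = 0.209). With the replicate number as a block in the 2 groups, 7 of the 107 were called, 3 higher and 4 lower, in a fit that called 3.33% of all genes. INPP5A was not among those 7 (log2 change −0.50, limma adjusted p = 0.0835). Averaging libraries 5 and 6 left INPP5A uncalled too (log2 change −0.42, limma adjusted p = 0.0630). Limma called none of the 107 in SORL1-A528T, CD33-SNP or INPP5D-SNP against WT, nor between the SORL1 lines. In that order, 3, 6, 11 and 1 had an unadjusted p below 0.05. The INPP5D-SNP count depended on the setting. With INPP5D-SNP and WT fitted alone it was 5, in a fit that called 490 of 14855 genes. With the replicate block over all libraries it was 15, 11 higher and 4 lower, in a fit that called 10.5% of all genes. None of the 7 genes tested was called, or had an unadjusted p below 0.05, in the lists of SERCA and secretory pathway pumps, SERCA regulators and plasma membrane export, whose most abundant tested genes were ATP2C1 (mean over libraries 58.9 TPM), C4orf3 (93.4 TPM) and SLC8A1 (49.3 TPM).

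Between the TREM2 lines, 28 of the 107 genes were called in TREM2-KO minus TREM2-R47H, 20 higher and 8 lower, or 26.2% beside 21.3% of all genes. Over all genes 2180 were called higher and 977 lower, and 1451 higher and 1388 lower under median-ratio scaling, which gave 15 higher and 11 lower among the 107. TRPV4 averaged 15.6 ± 6.83 TPM in TREM2-KO and 2.21 ± 0.47 TPM in TREM2-R47H (SD, n = 8 and 7; log2 change 2.23, limma adjusted p = 1.3e-06). TPCN1, an endolysosomal channel, averaged 51.0 ± 9.14 TPM in TREM2-KO and 34.5 ± 5.02 TPM in TREM2-R47H (SD, n = 8 and 7; log2 change 0.54, limma adjusted p = 0.00477). NFATC1 averaged 6.99 ± 1.78 TPM in TREM2-KO and 20.2 ± 8.0 TPM in TREM2-R47H (SD, n = 8 and 7; log2 change −1.34, limma adjusted p = 1.0e-05), and ITPKB averaged 9.72 ± 1.13 TPM in TREM2-KO and 16.1 ± 2.39 TPM in TREM2-R47H (SD, n = 8 and 7; log2 change −0.67, limma adjusted p = 1.2e-06).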

How the data were processed

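RNA was sequenced from 40 hMGL libraries in 7 groups taken from the labels. The authors deposited 1 TPM column per library for 60504 genes, and each column sums to between 999999.15 and 1000000.76. The submitters' processing notes name cutadapt 1.18, STAR 2.7 and RSEM 1.3.1; no genome build is named there or in the labels. Symbols were found for 94.2% of identifiers. The table holds no counts, so no count model was used, and precision comes from the spread between libraries.

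Changes were fitted with limma 3.58.1 (R 4.3.3) in 1 model of all libraries, on log2(TPM + 1) and with robust, trended empirical Bayes variances. The 14855 genes that reached 1 TPM in 7 or more libraries were tested. P-values were two-sided and adjusted over these genes (Benjamini-Hochberg), and called below 0.05. The procedure was run on simulated data with independent noise for each gene and library. Those data lack the shared deviations of the real libraries, so they cannot show how far the calls here hold. The members and lists were chosen with earlier results of these data known. Named genes are the members, up to 3 called genes per list and comparison with the lowest adjusted p, otherwise the most abundant gene of a list without calls, the protein-coding genes within 250 kb of ATP2A3 and the 5 genes most correlated with it. A gene of the calcium lists that this rule names is not reported here.

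Replicate numbers come from the labels. Over the 7 pairs, deviations of same-numbered libraries from their group means correlated at 0.114 to 0.312 between TREM2-KO and WT, at 0.140 to 0.278 between TREM2-R47H and WT and at 0.306 to 0.785 between SORL1-KO and SORL1-A528T, above the limit of 0.1 set for pairing; in the other comparisons at least 1 pair fell below it. Of 7 libraries, 3 in TREM2-KO minus WT, 4 in TREM2-R47H minus WT and 3 between the SORL1 lines correlated best with their own number. The labels do not say what the numbers mark. Alternatives were pseudocounts, filters, scalings, separate fits, a replicate block, a stromal marker covariate and libraries left out or averaged. Leaving out the 3 libraries that stood apart or WT library 4, and averaging libraries 5 and 6, were chosen after seeing the data. Libraries 5 and 6 had close summed stromal markers in SORL1-A528T (231.6 and 231.5 TPM) and SORL1-KO (180.0 and 178.6 TPM). The sums were also close in TREM2-KO (452 and 439 TPM) and TREM2-R47H (269 and 282 TPM), but not in WT (1402 and 3292 TPM). The labels do not say why, and each n counts both libraries.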

Additional observations from a re-analysis of the deposited data

Results flagged for a closer look

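Of 50 combinations of a member and a group with 7 or 8 libraries, 5 held a library far from the others by Dixon's test, which flags about 1 in 20 groups by chance. In SORL1-A528T, library 7 was low in ATP2A2 at 106.6 TPM, with the nearest other library at 125.1 TPM, and high in ATP2B1 at 66.2 TPM, with the nearest at 41.7 TPM. That library is 1 of the 3 that stood apart from their groups. TREM2-KO library 8, another of the 3, was high in STIM2 at 26.5 TPM, with the nearest at 22.9 TPM. STIM1 was high in TREM2-R47H library 4 at 26.1 TPM, with the nearest at 22.9 TPM. ITPR3 was high in TREM2-R47H library 1 at 0.31 TPM, with the nearest at 0.18 TPM, a level at which a few reads set the value. ATP2A3 had no library set apart in this way in any of its 5 groups of 7 or 8 libraries. The causes were not tested.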

How the results depend on the processing

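Of 848 alternative values of the 8 tested members, 786 kept their sign and their side of the threshold. Of the others, 7 lost a call, 8 gained one and 47 changed sign, none of the 47 called in either fit. The other calcium genes picked by the naming rule were followed only in comparisons that called them, so none could gain a call. Of their 460 values, 412 kept the call and 48 lost it. Over all 107 calcium genes tested, calls went from 15 to 29 in TREM2-R47H minus WT with the block over all libraries. They went from 2 to 7 in TREM2-KO and from 1 to 5 in SORL1-KO minus WT. Median-ratio scaling gave 10 in TREM2-R47H minus WT. The log2 changes of members that took the other sign were as follows. In TREM2-KO minus WT, ATP2B1 was −0.018 with either replicate block or without the 3 libraries that stood apart, and ORAI1 −0.09 with the stromal covariate. In TREM2-R47H minus WT, ITPR1 was 0.014, 0.030 and 0.018 with median-ratio scaling, quantile normalization and the stromal covariate, ITPR2 0.0022 and 0.0063 with the 2 scalings, and STIM1 0.0043 with quantile normalization. In SORL1-KO minus WT, ITPR2 was 0.013, 0.031 and 0.037 with the same 3 settings, 0.0064 with libraries 5 and 6 averaged and 0.0094 without WT replicate 4, and ATP2B1 0.055 with the covariate. In SORL1-A528T minus WT, ATP2B1 was 0.011, 0.017 and 0.091 and ITPR1 0.010, 0.028 and 0.085 with the 3 settings (0.0046 and 0.0033 with libraries 5 and 6 averaged), ORAI1 0.0085 and 0.015 with the 2 scalings, and ATP2B4 0.038, STIM2 0.065 and ITPR2 0.013 with the covariate. In CD33-SNP minus WT, ATP2B4 was 0.109 and 0.050 with the 2 blocks and 0.033 with the covariate, and leaving out a replicate gave −0.20 to 0.047 for ATP2B4, −0.20 to 0.34 for ATP2B1, −0.093 to 0.31 for ITPR1 and −0.059 to 0.24 for ITPR2. In INPP5D-SNP minus WT, ITPR1 was 0.013 with quantile normalization and 0.026 and 0.039 with the 2 blocks, STIM2 0.031 with the block over all libraries and ATP2B4 −0.024 with the covariate, and leaving out a replicate gave −0.26 to 0.049 for ATP2A2 and −0.066 to 0.013 for ITPR1. ATP2A2 was −0.035, −0.029 and −0.0006 in TREM2-KO minus TREM2-R47H with the 2 scalings and with libraries 5 and 6 averaged, and 0.0012 between the SORL1 lines with quantile normalization. ATP2A3 ranged from −1.71 to −1.45 (log2) in TREM2-R47H and from −0.93 to −0.73 in SORL1-KO against WT; in CD33-SNP it was −1.06 without replicate 1 and −0.34 without replicate 2. Members called in TREM2-R47H minus WT fell to 0 with median-ratio scaling, quantile normalization, the 2 groups alone, the stromal covariate or libraries 5 and 6 averaged, and reached 2 (ATP2B4, STIM2) with a replicate block over all libraries; without WT replicate 4 the call was STIM2 instead of ATP2B4, and with no filter ITPR3. In SORL1-KO minus WT the replicate block over all libraries called 1 member (ATP2B4, limma adjusted p = 0.0375), beside 4.95% of all genes. In INPP5D-SNP minus WT that block called 2 members (ORAI1 −0.34, ITPR2 0.49), beside 10.5% of all genes. In both comparisons at least 1 pair fell below the limit set for pairing. In TREM2-KO minus TREM2-R47H the replicate block in the 2 groups alone called 4 members, adding ATP2B1 (0.26) and ORAI1 (0.20), and the block over all libraries called 3, adding ORAI1; the 7 pairs correlated at 0.092 to 0.540, and 2 of 7 libraries correlated best with their own number. Neither block changed another member call. Beside these counts, the block over all libraries called 19.6% of all genes in TREM2-R47H minus WT. Between the TREM2 lines it called 25.1% of all genes, and the block in the 2 groups alone called 26.5%. In CD33-SNP and INPP5D-SNP, leaving out a replicate gave 0 to 0 members called, the lone library being assumed to vary like the other groups. Genes called over all ranged from 958 to 2906 around 1693 in TREM2-R47H minus WT, 151 to 587 around 239 in TREM2-KO, 18 to 735 around 162 in SORL1-KO, 3 to 127 around 7 in SORL1-A528T, 0 to 209 around 0 in CD33-SNP and 0 to 1567 around 5 in INPP5D-SNP minus WT, 2525 to 3943 around 3157 in TREM2-KO minus TREM2-R47H and 11 to 74 around 14 between the SORL1 lines. The causes were not tested. With no counts, the depth behind ITPR3, below 1 TPM, is unknown.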
